A study of Bos taurus with 10 samples.

Results

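A CG dyad is the pair of cytosines of a CG dinucleotide and its complement, 1 on the plus strand and 1 on the minus strand, 1 bp downstream. A dyad was kept in a tissue when both cytosines had at least 8 reads in the library of that tissue, on the 29 autosomes. In all, 87082 dyads met this in at least 1 tissue, out of 360884 autosomal dyads with at least 1 listed cytosine (24.1%). Of these, 4127 lay in CCGG, the 4 letters that MspI recognises (4.74%), 82948 did not, and 7 had a flanking base that the files give as unknown and entered neither class. The rule uses depth and position alone, so the levels of both strands are free of it.

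Reduced representation bisulphite sequencing (RRBS) was run on 1 library from each of 10 tissues of Hereford cattle, taken from the cow behind the reference genome and from her relatives. Adult tissues were whole testes, nucleated blood cells, skeletal muscle, intercaruncular uterus and a mammary gland on day 90 of lactation. The muscle is labelled as near a caesarean. Juvenile tissues were mammary parenchyma, frontal cortex, abomasum and ileum, and the rumen was fetal. Testis and rumen came from males and the others from females. Apart from the caesarean, the labels name no treatment, and they name no sorted cell type. There were no replicates, so spread is given over the 10 tissues, sex and stage cannot be told apart from tissue, and intervals within a library cover counting error only.

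CG is symmetric, so each strand of a dyad carries its own cytosine. After replication only the old strand is methylated, and the maintenance methyltransferase DNMT1 copies the mark to the new strand, which is why mammalian dyads are usually methylated or unmethylated on both strands. MspI cuts after the first C of its site whether or not the CG is methylated and leaves a CG overhang. In a standard library preparation that overhang is filled with cytosines from the reaction mixture, so at a cut site only the strand whose 5′ end opens the fragment keeps the cytosine of the animal.

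The dyads on which the results turn are printed below, because their surroundings are part of the pattern. Each is the UMD3.1 plus strand read 5′ to 3′ from the 5-base reference contexts in the files. Capitals mark the dyad, or CCGG where the dyad lies in it, and n marks a base that no listed cytosine covered. The first pair lies in CCGG and was discordant (strand levels 50 percentage points or more apart) in every tissue, the next 3 were discordant in every tissue outside CCGG, and the last pair was intermediate on both strands everywhere.
chr25:35453506-35453529: gtggagttcggagaggtgtCCGGg
chr6:114728172-114728195: gtgttcctcgtgagggagaCCGGg
chr13:40962780-40962821: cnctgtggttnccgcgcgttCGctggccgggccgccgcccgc
chr8:56729199-56729240: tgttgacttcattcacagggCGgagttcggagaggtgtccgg
chr19:44733-44774: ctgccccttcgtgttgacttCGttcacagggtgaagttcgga
chr2:100655361-100655402: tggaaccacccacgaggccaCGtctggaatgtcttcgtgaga
chr8:110667840-110667881: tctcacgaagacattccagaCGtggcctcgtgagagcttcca
Both CCGG windows stop 1 base past the site, since no cytosine was listed in the rest of the window. The CCGG window of chr25 and the first chr8 window share a run of 21 bases, ggagttcggagaggtgtccgg, and the last pair share 32 bases with 1 read as the reverse complement. The first chr8 window and the chr19 window also align closely, with single-base differences and no exact run of 12 bases. Each of these dyads lies where the other window has no CG. Some of the printed dyads are therefore copies of repeated sequence.

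Coverage of both strands was uneven between tissues. The number of dyads per tissue ranged from 25628 in abomasum to 50552 in lactating mammary gland, with a median of 44769.5. The median depth was 12 reads on each strand in abomasum and 38 and 40 reads on the plus and minus strands in ileum, the lowest and the highest of the 10. In all 10 tissues together 12912 dyads were read on both strands, 14.8% of the total, while 32724 dyads were read in 1 tissue alone (37.6%).

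The strands of a dyad were alike in 9 of the 10 tissues. Pearson's correlation between plus and minus levels over dyads was 0.964 in rumen, 0.962 in nucleated blood cells, 0.961 in mammary parenchyma and 0.958 in lactating gland, uterus and frontal cortex. It was 0.942 in skeletal muscle, 0.935 in ileum and 0.911 in abomasum. In testis it was 0.632 over 50066 dyads. The correlations describe dyads that share a library and a broad split into low and high levels. Both strands were below 20% at 50.7% of dyads in abomasum and up to 68.9% in rumen. Both were above 80% at 8.21% of dyads in testis and up to 23.4% in nucleated blood cells. Neighbouring values in the order of correlation were close among the 6 highest tissues, and testis stood apart from all 9 others.

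Dyads with one strand above 80% and the other below 20% were scarce outside testis. They made up 0.489% of dyads in frontal cortex, the lowest share, and 1.18% in ileum, the highest of the 9. In testis they were 6.85%.

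**Figure D1:**
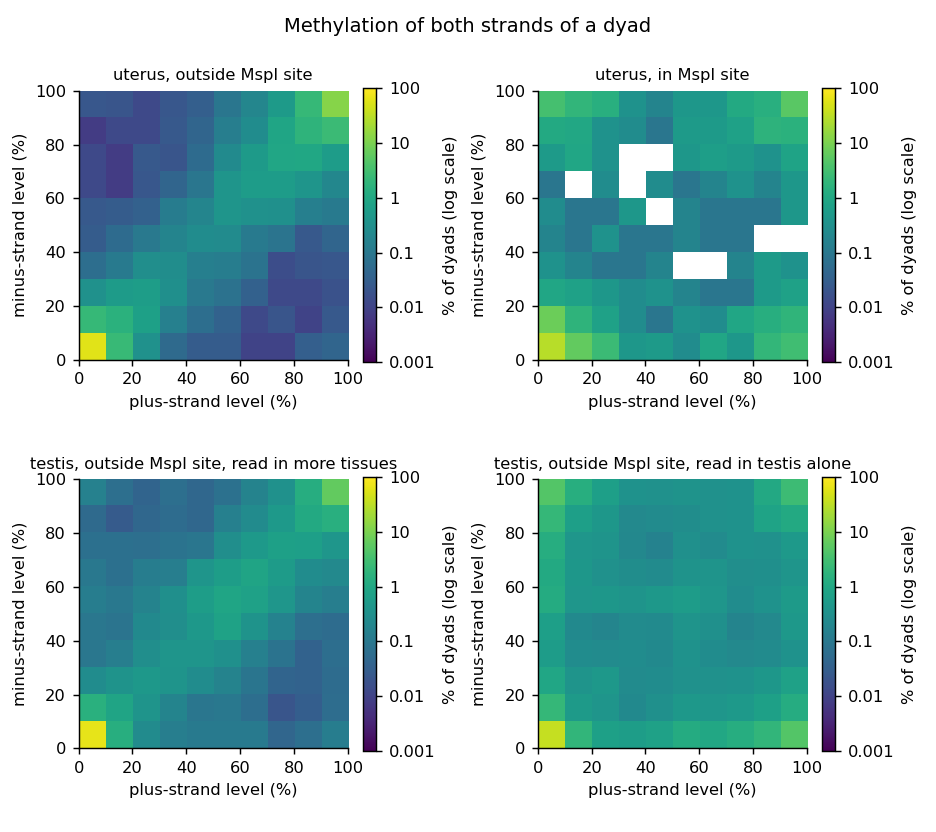
Plus-strand level (x axis, %) against minus-strand level (y axis, %) in 10-point bins, coloured by the percentage of the panel's dyads on a log scale, with white for empty bins. In uterus outside MspI sites, and in testis dyads that other tissues read too, most dyads lie along the diagonal, while MspI-site dyads in uterus and dyads read in testis alone also fill the upper left and lower right corners.

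A dyad was called discordant when its strands differed by 50 percentage points or more. The discordant share was 13.1% in testis (95% Wilson interval 12.8 to 13.4). It was 2.83% in abomasum (2.64 to 3.04), 2.27% in ileum (2.11 to 2.43) and 1.7% in skeletal muscle (1.58 to 1.83). In the other 6 tissues it lay between 1.01% in rumen and 1.26% in nucleated blood cells. The share of dyads with strands less than 20 points apart was 77.6% in testis and 85.2% to 95.8% in the other tissues. The mean discordant share of the 9 tissues other than testis was 1.52% ± 0.632 (SD, n = 9).

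Sampling of reads alone can set strands apart at 8 reads, so the reads of both strands were also compared at each dyad by Fisher's exact test with Benjamini-Hochberg adjustment within a library (q below 0.01 and 50 points or more). The test called 9.49% of dyads in testis, 4753 of 50066. It called 1.68% in abomasum, 1.63% in ileum and 1.15% in skeletal muscle. It called 1.03% in nucleated blood cells, 0.957% in lactating mammary gland, 0.955% in uterus and 0.94% in frontal cortex. In rumen it called 0.82%, and in mammary parenchyma 0.771%. Of the 8755 calls of the 10 libraries, 4002 remained without testis. The order of the tissues by calls was close to that by discordant share, with testis, abomasum and ileum highest in both.

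The plus strand was the higher one at 51.9% ± 1.61 of discordant dyads (SD, n = 10 tissues), above 50% in 8 of the 10 tissues, which was not tested. The share was 49.5% in testis, the lowest, and 54.2% in mammary parenchyma, the highest. Over all dyads the plus strand was higher by 0.155 ± 0.081 points (SD over 10 tissues, positive in 10 of 10, two-sided exact sign-flip permutation p = 0.00195, the smallest that 10 tissues allow). This is a small offset beside mean levels of 28.0% on the plus strand and 27.8% on the minus strand. At 20 or more reads on each strand it was 0.114 points with exact p = 0.0566.

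Dyads in MspI sites were discordant far more often than the rest. In CCGG the discordant share was 34.6% in ileum, 28.2% in abomasum, 26.6% in nucleated blood cells, 24.8% in skeletal muscle and 24.7% in uterus. It was 22.4% in frontal cortex, 21.1% in testis, 21.05% in rumen, 20.4% in mammary parenchyma and 20.2% in lactating gland. All 10 lie above the share outside CCGG, which ran from 0.378% in mammary parenchyma to 1.68% in abomasum, and was 12.8% in testis. CCGG dyads were 2.74% to 4.33% of the dyads of a library, but 43.1% to 68.2% of its discordant dyads in the 9 tissues other than testis. In testis they were 5.64% of the discordant dyads.

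**Figure D2:**
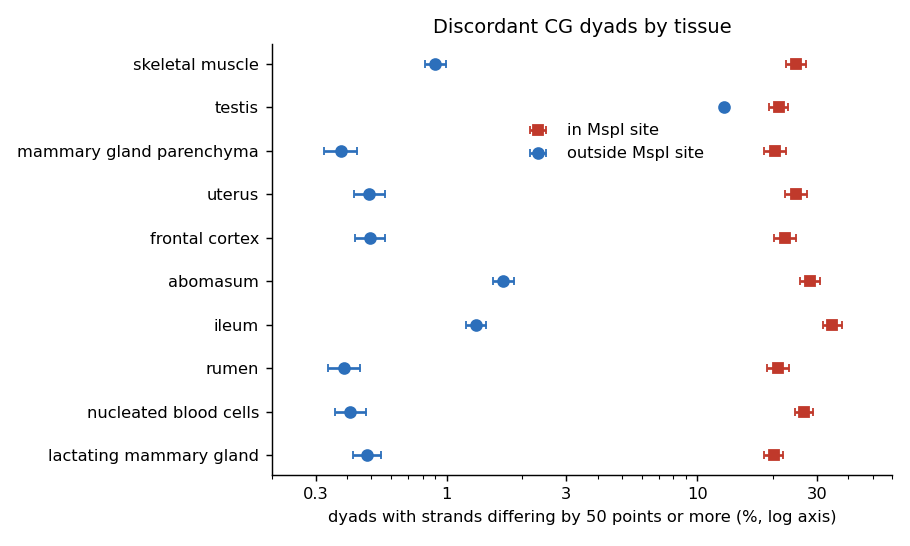
Share of discordant dyads (x axis, %, log axis) in MspI sites (red squares) and outside them (blue circles) in each tissue, with 95% Wilson intervals for counting error. The red squares lie between 20.2% and 34.6% in all tissues, and the blue circle of testis at 12.8% is far from the 9 others.

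The difference in discordant share, CCGG minus other dyads, was 22.5 ± 6.39 points (SD, n = 10 tissues, positive in 10 of 10). The two-sided exact sign-flip permutation p was 0.00195, with adjusted p = 0.00228 over a family of 7 sign-flip tests. Sign-flip p-values of alternative settings stand outside this family and were not adjusted. All sign-flip tests take the 10 libraries as independent, though they come from related cattle and discordant CCGG dyads mostly recur between them. The difference was 33.3 points in ileum, the largest, and 8.35 points in testis, the smallest. Among dyads with 8 to 15 reads on both strands the testis difference was -12.9 points, that is, the share was lower in CCGG than outside. Called dyads showed the same split, with 16.4% to 31.8% of CCGG dyads called per tissue against 0.24% to 9.17% of the others.

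The difference was also present where neighbours were methylated, that is, where at least 2 CG sites outside CCGG within 50 bp averaged 80% or more. There 33.1% ± 4.41 of CCGG dyads were discordant (SD, n = 10) against 1.23% ± 1.81 of other dyads. Correlations ran the same way, with a Pearson's r of 0.214 in abomasum to 0.511 in testis in CCGG, against 0.933 to 0.979 outside CCGG in the 9 tissues other than testis and 0.635 in testis.

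The result depends on how an MspI site is recognised. The values above read the 4 letters from the reference context in the files. When CCGG was taken only where both outer cytosines were themselves listed in any of the 10 libraries, 20.5% to 28.6% of the CCGG dyads qualified. Those had a discordant share of 9.24% ± 4.42 against 29.6% ± 5.29 for the other CCGG dyads, and exceeded dyads shown to lie outside CCGG by 7.99 ± 4.83 points (positive in 10 of 10 tissues, exact p = 0.00195). In testis the difference was then 0.961 points, 9.71% against 8.75%. With both outer cytosines listed in the same library it was 4.98 ± 5.68 points (exact p = 0.00586), with testis at 7.4% against 8.76%. Set against every dyad that the same library did not show to lie in CCGG, it was 3.58 points, positive in 9 of 10 tissues and not past the threshold (exact p = 0.0645). Of the dyads with both outer cytosines listed in any library, 84.5% to 94.7% had reads on both sides of the site, which is the configuration described next.

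Which strand was higher at a CCGG dyad followed which side of it had reads. A side counted as covered when at least 2 other cytosines were listed within 50 bp on it. Where only the downstream side was covered, the plus strand opens the fragment that was read, and where only the upstream side was covered, the minus strand does. In the downstream case the plus strand averaged 45.7% ± 9.04 and the minus strand 26.2% ± 10.2 (SD, n = 10 tissues). In the upstream case the order was turned over, with the minus strand at 48.0% ± 9.87 and the plus strand at 26.3% ± 9.06.

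The turn was present in every tissue. In nucleated blood cells the opening strand stood at 42.7% against 20.4% on the downstream side and at 46.8% against 22.9% on the upstream side. In testis the same pairs were 43.7% against 21.5% and 43.3% against 19.7%. Abomasum had the highest levels, 63.7% against 51.8% and 68.1% against 47.4%. The opening strand exceeded the other by 20.6 ± 2.87 points over both cases (range 16.7 to 25.4, positive in 10 of 10 tissues, two-sided exact sign-flip permutation p = 0.00195, adjusted p = 0.00228).

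Where both sides were covered, the strands were close. The plus strand averaged 38.0% ± 6.78 and the minus strand 39.3% ± 7.95, a difference of -1.29 ± 1.49 points that was negative in 7 of the 10 tissues (two-sided exact sign-flip permutation p = 0.0156, adjusted p = 0.0156). The discordant share was 11.7% ± 5.37 with both sides covered and 33.3% ± 5.26 with 1 side covered. The other 3373 of the 14187 CCGG dyads, counted once a tissue, met none of these definitions, and 33.2% ± 8.16 were discordant. They had fewer than 2 listed cytosines on each side, or 2 or more on 1 side and 1 on the other.

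**Figure D3:**
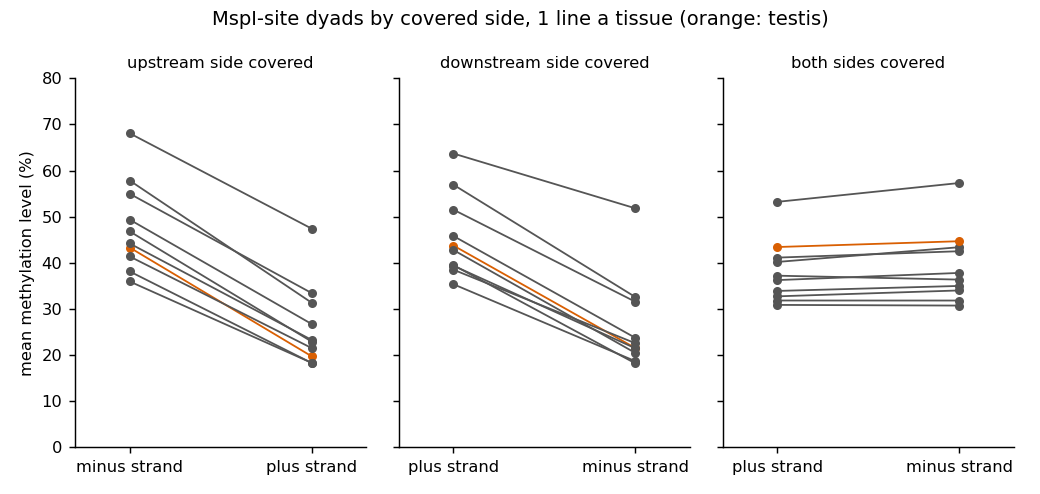
Mean methylation level (y axis, %) of both strands of MspI-site dyads, 1 line a tissue with testis in orange, where reads lay only upstream, only downstream or on both sides. All 10 lines fall from the opening strand to the other strand in the left and middle panels, and are nearly flat in the right panel.

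The opening strand was also the higher one dyad by dyad. Over the 10 tissues, 1697 CCGG dyads with 1 covered side were discordant, counting a dyad once for each tissue, and the opening strand was the higher in 1427 of them (84.1%). In methylated neighbourhoods, with CG sites outside CCGG at 80% or more, the opening strand averaged 80.02% ± 3.5 and the other strand 49.1% ± 6.43. Their neighbouring CG sites averaged 89.5% ± 1.62. The protocol in the labels gives the digestion and the addition of A to blunt ends without the fill-in itself, so the part of end filling in these values was not tested.

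Pairs of discordant CCGG dyads close to each other pointed in opposite directions. Within 50 bp there were 378 such adjacent pairs over the 10 tissues, counting a pair once for each tissue. Median gaps ran from 30.5 to 36 bp between tissues. Discordant CCGG dyads mostly recur between tissues, as given below, so these pairs are not independent. In 372 pairs the upstream dyad was higher on the plus strand and the downstream dyad on the minus strand, in 5 pairs the reverse held, and in 1 pair both pointed the same way. In nucleated blood cells all 63 pairs had the first order, as did all 43 in ileum and all 40 in mammary parenchyma. In these pairs the higher strands are those that open the stretch between both sites at its ends.

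Cytosines near a discordant dyad were compared with its higher and its lower strand. At discordant CCGG dyads the lower strand averaged 12.6% ± 3.44 and the higher strand 88.3% ± 3.83. CG sites outside CCGG within 50 bp averaged 69.6% on the lower strand (60.9% to 76.4% over tissues) and 71.1% on the higher strand (57.7% to 77.3%). These neighbour values rest on dyads with such sites on both strands, 102 to 223 a tissue out of 274 to 416 discordant CCGG dyads. At those dyads the low value was therefore not shared by the neighbours on its own strand.

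The mean level of neighbouring CG sites on both strands lay nearer to the higher strand. At CCGG dyads the lower strand was farther from it by 24.7 ± 3.12 points (higher in all 10 tissues, adjusted exact p = 0.00228), and by 36.3 ± 8.13 points when neighbours in CCGG were left out. Over all discordant dyads the difference was 22.6 ± 3.32 points (same exact test, adjusted p = 0.00228). Without neighbours in CCGG it was 23.5 ± 7.35 points, with testis falling from 27.4 to 9.89. For discordant dyads outside CCGG the same step lowered it from 20.2 ± 4.08 to 15.3 ± 4.76 points.

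Discordant dyads outside CCGG looked different on this measure in testis. There the higher strand averaged 85.5% and the lower 8.47%, and CG neighbours averaged 78.1% on the higher strand and 24.4% on the lower strand. In nucleated blood cells the neighbours of such dyads were at 69.4% and 57.9%, and in abomasum at 72.1% and 53.2%. Ileum lay between, at 75.2% and 39.5%. The neighbour values again rest on dyads with such sites on both strands, 3904 of 6166 in testis. At those testis dyads the strands of the neighbourhood therefore differed along with the dyad.

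The testis discordance outside CCGG sat in dyads that no other tissue read on both strands. There were 18958 of these, and 29.9% were discordant (95% Wilson interval 29.2 to 30.5), with a Pearson's r between strands of 0.245. Among 16694 testis dyads read in 1 to 8 other tissues as well, 2.34% were discordant and r was 0.911. Among 12663 dyads read in all 10 tissues, 0.877% were discordant in testis and r was 0.949. The share fell from 29.9% at dyads read in testis alone to 20.4% with 1 more tissue, 7.28% with 2 more, and 0.431% with 8 more.

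**Figure D4:**
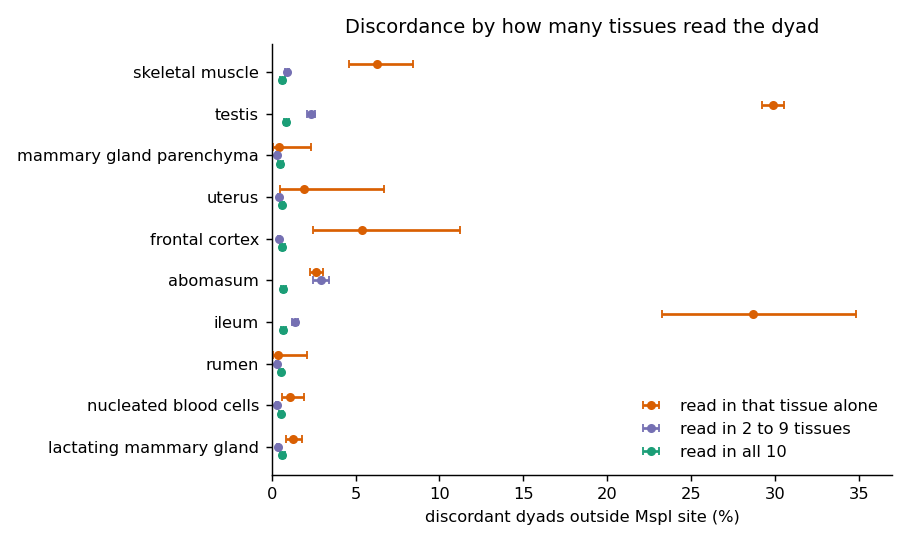
Discordant share of dyads outside MspI sites (x axis, %) in each tissue, split by whether the dyad was read in that tissue alone (orange), in 2 to 9 tissues (purple) or in all 10 (green), with 95% Wilson intervals. Testis at 29.9% and ileum at 28.7% stand out among the orange points, and the green points of all tissues lie between 0.513% and 0.877%.

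Dyads outside CCGG that were read in 1 tissue alone had a higher discordant share than those read in 2 to 9 tissues in 9 of the 10 tissues, and the gap varied widely in size. In ileum it was 28.7% against 1.38%, but over 230 dyads read alone. In skeletal muscle the shares were 6.25% and 0.905%, and in frontal cortex 5.36% and 0.423%. They were closer in lactating gland, at 1.27% and 0.38%, and in nucleated blood cells, at 1.12% and 0.335%. In rumen they were 0.38% and 0.321%. There 1 of 263 dyads read alone was discordant, and in mammary parenchyma 1 of 237. Uterus had 2 of 105 and frontal cortex 6 of 112, so the order in these tissues rests on few dyads. In abomasum, with 7082 dyads read alone, the order was the other way, 2.64% against 2.91%.

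Depth moved with these shares. Dyads read in testis alone had a median of 13 reads per strand, against 52 for those read in all 10 tissues. In testis the share outside CCGG was 22.7% where the shallower strand had 8 to 10 reads, 16.1% at 16 to 20 reads and 0.865% above 50. At like depth, 8 to 15 reads on both strands, 33.0% of 9884 dyads read in testis alone were discordant, and 5.53% of 2443 testis dyads shared with other tissues. In the other 9 tissues the share outside CCGG averaged 2.03% ± 1.81 at 8 to 10 reads, 0.572% ± 0.471 at 16 to 20 reads, and rose again to 2.25% ± 1.15 above 50 reads.

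Discordance in testis ran along a strand. Of 1737 adjacent pairs of discordant dyads outside CCGG within 50 bp, 1663 had the same strand higher (95.7%). In the other tissues there were 17 to 104 such pairs, and 81.2% to 95.2% of them had the same strand higher. For dyads read in testis alone, adjacent dyads within 20 bp correlated with r = 0.918 on the plus strand over 8053 pairs, but the plus level of one with the minus level of the other gave r = 0.336. For testis dyads shared with other tissues the same pair of values was 0.973 and 0.941. These correlations are over pairs that share reads, since 1 read covers several sites.

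Methylation outside the CG context stayed low on both strands of these stretches. Near discordant dyads read in testis alone, cytosines in other contexts averaged 0.787% on the higher strand and 1.85% on the lower strand.

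The flanking bases of a dyad went with its discordant share beyond the MspI site. Among the 16 forms of NCGN, CCGG stood first, at 24.8% ± 4.62 over the 9 tissues other than testis. ACGT followed at 3.37% ± 1.77, TCGA at 3.2% ± 2.33, ACGA at 2.64% ± 1.72 and TCGT at 2.38% ± 1.62. The lowest were GCGC at 0.302% ± 0.184, CCGC at 0.382% ± 0.348 and GCGG at 0.4% ± 0.302. The forms that share 3 letters with the site were not high, with 1.54% for ACGG and 1.31% for CCGT. Mean levels moved along with the flanks, from 20.3% in GCGC to 57.4% in TCGT, and an unmethylated dyad cannot be discordant. In testis CCGG was at 21.1%, and the other forms ran from 5.69% in GCGC to 27.0% in ACGT.

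Distance to an MspI site also moved with the share. The files list a CG cytosine at 82553 autosomal CCGG sites. In the 9 tissues other than testis, dyads outside CCGG were discordant at 0.37% ± 0.309 when 11 to 20 bp from the nearest of these sites. At 21 to 30 bp the share was 1.84% ± 0.967, and at 41 to 50 bp 4.35% ± 1.5. Mean levels rose over the same distances from 25.7% to 33.3% and 55.9%. Farther out the share was 4.26% ± 2.39 at 51 to 100 bp and 2.06% ± 1.09 beyond 100 bp. Mean levels there were 66.9% and 38.4%. In testis the share was 10.7% at 2 to 10 bp and 18.5% at 21 to 30 bp.

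The same dyads were discordant again and again in different tissues. Among the 12912 dyads read in all 10 tissues, 248 lay in CCGG and 12663 outside, and 1 had an unknown flank. In CCGG, 109 were discordant in at least 1 tissue, 99 of them in 2 or more tissues (90.8%) and 46 in all 10. Outside CCGG, 243 were discordant in at least 1 tissue (1.92%), 119 of them in 2 or more (49.0%) and 19 in all 10. The dyads discordant in all 10 tissues were 18.5% of the CCGG dyads and 0.15% of the others. Over all dyads of a single library, 20.2% to 34.6% were discordant in CCGG and 0.378% to 12.8% outside it. By the stricter Fisher's exact test, 0.771% to 9.49% of all dyads were called per tissue.

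**Figure D5:**
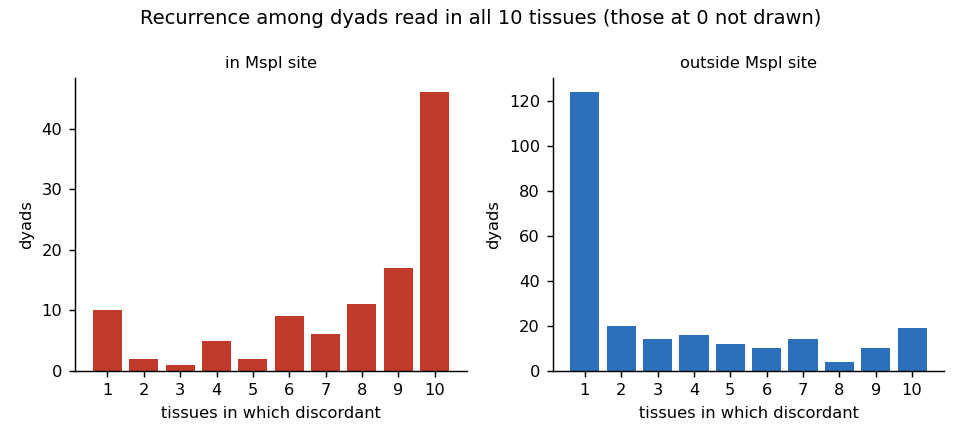
Number of dyads (y axis) by the number of tissues in which they were discordant (x axis), among dyads read in all 10 tissues, in MspI sites (left) and outside them (right), with those discordant in 0 tissues left out. The left panel is highest at 10 tissues with 46 dyads, and the right panel at 1 tissue with 124 and again raised at 10 tissues with 19.

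The direction was kept. Of the 218 dyads discordant in 2 or more tissues, 1 was higher on the plus strand in some tissues and on the minus strand in others, and that one lay in CCGG. Of the 65 dyads discordant in all 10 tissues, 31 were higher on the plus strand and 34 on the minus strand. Of the 46 in CCGG, 6 with reads downstream only were higher on the plus strand and 3 on the minus strand, and all 7 with reads upstream only were higher on the minus strand. The other CCGG dyads had reads on both sides in some tissue, or could not be given a side. The 65 rest on the abomasum library, whose low coverage limits the dyads read everywhere: without it 104 dyads were discordant in all 9 remaining tissues. Of the 124 dyads outside CCGG that were discordant in exactly 1 tissue, 44 were so in testis.

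Recurrently discordant dyads outside CCGG lay mostly in sequence that other members share. A 42-base window around each dyad was compared with the windows of all other members, and a window counted as shared when a run of 16 bases occurred, on either strand, in that of a dyad at least 1000 bp away. Among dyads outside CCGG read in all 10 tissues, 18 of the 19 discordant in every tissue shared such a run (94.7%). Of those discordant in 1 to 9 tissues, 83.4% did, and of the 12420 discordant in none, 50.5%. The shared windows of the 19 had a median of 248.5 partners, against 10 for those never discordant.

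Dyads read in testis alone seldom shared a run. A shared run was found for 5.73% of those that were discordant and for 8.37% of those that were not, against 34.9% of all dyads outside CCGG. In CCGG, 23 of the 46 recurrent dyads had 16 known bases in a row, and 20 of these shared a run (87.0%). Among CCGG dyads with such bases that were read in all 10 tissues, the share was 69.8% for those discordant in 1 to 9. It was 56.25% for those discordant in none, and 44.8% over all CCGG dyads. Copies of a repeat share their source, so these counts are not of independent dyads.

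The 3 recurrent CCGG dyads with the largest mean difference show the range. At chr6:18008377-18008378 the minus strand read 98.9% in lactating gland and 100% in the 9 other tissues. Its plus strand ran from 3.57% in uterus over a median of 10.0% to 25% in rumen, with 17 to 164 reads per strand. The strands did not overlap in any tissue and differed by -88.8 ± 6.32 points (SD, n = 10, plus minus minus). No neighbouring CG site with 8 reads was listed within 50 bp of it.

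At the dyad of chr25:35453526-35453527, the plus strand ran from 85.9% in testis to 100%, with a median of 99.3%. The minus strand ran from 0% in lactating gland over a median of 5.98% to 32.1% in abomasum, where it rested on 28 reads. Reads lay on the downstream side only in 6 tissues and on both sides in 4. Its neighbours averaged 39.7% to 73.8%.

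The dyad at chr6:114728192-114728193 had the most reads of the 3, up to 730 in frontal cortex. Its plus strand lay between 4.99% in testis and 20.4% in abomasum, and its minus strand between 88.3% in testis and 100% in abomasum. The difference was -87.5 ± 3.39 points. Only the upstream side was covered, in every tissue, so the higher minus strand is the opening one.

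The strongest dyad outside CCGG was chr13:40962800-40962801, in TCGC, 7 bp from the nearest listed CCGG. Its plus strand read 96.4% to 100% in the 10 tissues. Its minus strand read 0% in 9 tissues and 3.23% in nucleated blood cells, on 8 to 69 reads per strand. The neighbouring CG sites averaged 0.614% to 3.38%, so here the higher strand is the one that stands apart from its surroundings. No partner window was found for it.

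At chr8:56729219-56729220, in GCGG, the plus strand was 100% methylated in every tissue on 13 to 103 reads. The minus strand ran from 0.801% in ileum to 11.1% in testis on 381 to 981 reads. Its window had 470 partners. Its minus strand had several times the reads of its plus strand in every tissue.

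At chr19:44753-44754, in TCGT, the order was turned over, with 0% to 9.52% on the plus strand and 96.1% to 100% on the minus strand. The neighbours averaged 63.7% to 88.2%, nearer to the minus strand. Its window had 256 partners. It aligns closely with the first chr8 window, which has no CG at the place of this dyad. At all 3 dyads the difference was past q below 0.01 in all tissues by Fisher's exact test with Benjamini-Hochberg adjustment.

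The other 16 recurrent dyads outside CCGG had mean differences between strands of 67.9 to 92.0 points in size. In 14 of these the neighbours averaged over 70%. At chr6:10053302 the neighbours averaged 3.45%, and at chr13:40962800 1.5%. The 19 were spread over 13 chromosomes, and the closest pair, chr7:12141011 and chr7:12141021, lay 10 bp apart.

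A few dyads were discordant in 1 tissue and close in the other 9, and 15 met the rule for this (called in 1 library, under 20 points apart in the rest). At chr22:59714319-59714320, in CCGG, the minus strand was 100% in lactating gland on 52 reads, and 1.49% to 6.71% in the other tissues on 201 to 986 reads. Its plus strand lay between 1.47% and 15.4% in all 10. At chr26:17972425-17972426, in TCGA, testis had 11.8% on the plus strand (34 reads) and 100% on the minus strand (18 reads). The other tissues lay between 57.9% and 94.4% on the plus strand. At chr24:7692359-7692360, in GCGC, abomasum had 93.8% and 20% on 16 and 10 reads. Each of these rests on 1 library, and on few reads in the last case.

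Dyads that were intermediate on both strands in every tissue were the counterpart, 161 in number, all between 20% and 80% by the rule that chose them. The one with the most reads, chr2:100655381-100655382, had 47.9% to 78.3% on the plus strand and 41.7% to 70.5% on the minus strand. Its minus strand held up to 64442 reads and its plus strand as few as 60. At chr8:110667860-110667861 the levels were 40.5% to 69.6% and 41.7% to 70.6%, and here the plus strand was the deep one, with up to 57386 reads. The windows of both share 32 bases in opposite orientation, and the deep strand is the same one in the orientation of the repeat. Discordance and intermediate level thus both occur within repeated sequence, at different dyads: chr2:100655359, 22 bp before the first of these, read 95.2% on the plus and 3.2% on the minus strand as a mean over tissues.

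The testis share by chromosome ran from 10.4% on chromosome 10 to 16.8% on chromosome 20. In the other 9 tissues pooled it ran from 0.647% on chromosome 17 to 3.04% on chromosome 4, and in CCGG from 9.89% on chromosome 12 to 38.2% on chromosome 27.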

How the data were processed

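RRBS libraries were made by the authors with MspI from 10 cattle tissues, 1 library each. The authors aligned reads to UMD3.1 with a modified SOAPaligner pipeline and kept cytosines with at least 8 reads. For each they deposited a raw read count of its own strand, and the methylation level as a fraction of methylated reads. Reads mapped to 1 place only were kept, which matters in repeats.

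Methylated reads were recovered as level times reads, whole at every cytosine within 1e-06. Plus and minus cytosines 1 bp apart were joined on 29 autosomes. CCGG was read from the 5-base reference context in the files. The rule written first, for want of a genome, took CCGG where both flanking cytosines were listed in any of the 10 libraries. It gives a smaller difference, printed beside the main one. Columns with a p-value and FDR were not used. Fisher's exact tests were adjusted by Benjamini-Hochberg within a library, and tissue-level differences were tested by exact sign-flip permutation (two-sided). The dyad test was tested on simulated data first.

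Named dyads were the 3 in and 3 outside CCGG with the largest mean difference among those discordant in all 10 tissues, 3 called in 1 tissue only (under 20 points in the other 9) and the 2 deepest intermediate ones, at most 1 per 1 kb. The dyads, lists and rules were chosen with earlier results of these data known. Other dyads named were chosen after their values were seen. Analyses ran in Python 3.11.15 with pandas 2.3.3, SciPy 1.17.1, Numba 0.67.0, NumPy 2.4.6 and, for figures, matplotlib 3.10.9. Genes were not assigned, as no UMD3.1 annotation was used here. Alternatives were other depths, difference limits, CCGG rules, windows and sets of tissues.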

Additional observations from a re-analysis of the deposited data

Results flagged for a closer look

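Testis lay far from the other 9 tissues on 3 measures, judged by the gap to the nearest tissue over the whole range. Its correlation between strands was 0.632, where the nearest tissue, abomasum, had 0.911 (gap 0.841 of the range). Its discordant share was 13.1%, where abomasum had 2.83% (gap 0.849 of the range). Its discordant share outside CCGG was 12.8%, where abomasum had 1.68% (gap 0.895 of the range). The 3 rest on the same dyads. In CCGG, the testis share of 21.1% lay within the range of the others. By chance about 1 in 20 groups would show a gap large enough to be flagged on a measure. Depth, breadth of reading and direction along a strand moved with the testis value, as given above, and their part in it was not tested.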

How the results depend on the processing

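Of 71 alternatives over 8 results, 62 were counted as unchanged. Tested results had to keep direction and side of the threshold, whatever their size. The CCGG excesses of 7.99 and 4.14 points given below are therefore among the 62. The correlation and the discordant share had to stay within the SD over tissues, which testis widens. Counts had to stay near the main count. The strand correlation averaged 0.83 to 0.95 and the discordant share 1.52% to 4.80% over their alternatives. Fragment end difference (16.3 to 52.4 points) and distance to neighbours (22.0 to 25.01 points) passed in all theirs. At 20 or more reads per strand the plus-minus offset was 0.114 points, no longer past the threshold, calls were 3337 and dyads discordant in every tissue 33. The CCGG excess was 7.99 points by the rule fixed first (both flanks listed in any library) and 4.14 points with at least 1 listed flank. With flanks listed in the same library, against every dyad not so shown to lie in CCGG, it was 3.58 points (exact p = 0.0645). Calls were 4256 with Bonferroni and 4002 without testis. Dyads discordant in every tissue were 36 at 60 points or more, 104 without abomasum, and 107 in at least 8 tissues. Alternatives that leave out dyads in CCGG, restrict to dyads read in 2 or more tissues, to methylated neighbourhoods or to neighbours outside CCGG, or read flanks in the same library, and some leaving out testis or abomasum, were chosen after seeing the data. The tested differences were paired within each library. No pairing between libraries was made, and each tissue has 1 library. At 8 reads a level moves in steps of one read in 8, so discordance at that depth is loosely measured.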
